A study of Mus musculus with 16 samples.

Results

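The genes described here are 36 genes of the lysosome and of endosomal acidification, out of 34741 genes named on the arrays. They were chosen by name: 3 transcriptional regulators, 7 membrane and transport proteins, 9 cathepsins and legumain, 4 other hydrolases or their activator, 5 subunits of the membrane sector (V0) and 5 subunits of the catalytic sector (V1) of the vacuolar proton pump, and 3 endosomal nucleases. All 36 had a probe, 24 of them a single one. RNA of splenic B cells was read in 4 genotypes, all of the AM14 strain, in which the antigen receptor of the B cells recognises IgG: DKO cells (labelled Tlr7/9-/-) lack both Tlr7 and Tlr9, Tlr9KO cells (Tlr9-/-) lack Tlr9, Tlr7KO cells (Tlr7-/-) lack Tlr7, and WT cells keep both. Tlr7 and Tlr9 encode endosomal receptors for RNA and DNA. Cells of each genotype were taken unstimulated (0 h) or after exposure to PL2-3, an antichromatin monoclonal IgG, for 6, 24 or 42 h, which gives 16 samples on 16 arrays. Age, cell purification and any pooling of animals are not stated in the labels used here.

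Lysosomes degrade what endosomes and autophagosomes deliver, with hydrolases that need an acid lumen. The vacuolar ATPase supplies that acid by coupling ATP hydrolysis in its V1 sector to proton transport through its V0 sector. TFEB and its relatives TFE3 and MITF are transcription factors that bind a palindromic E-box, the CLEAR element, in the promoters of many lysosomal genes. In B cells and other antigen-presenting cells, cathepsins and legumain cut antigens and the invariant chain for MHC class II, and they also cleave the endosomal Toll-like receptors. The phospholipase D family members PLD3 and PLD4 are exonucleases that trim single-stranded nucleic acids in the same compartments.

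Promoter sequence is shown because TFEB binds the CLEAR element in the promoters of many lysosomal genes. RefSeq promoter windows (build GRCm38.p6, 250 bases before to 50 after each start) were matched for 30 of the 36 genes. The E-box core CACGTG, which reads the same on both strands, lay in the windows of 10 of the 30 genes, against 8.09% of 27025 genes in all. Its extended form TCACGTGA, which contains the core, lay in 5 of the 30, against 1.12% of all genes. Those 5 genes are shown 5′ to 3′ on their own strand with the extended form in capitals, and up to 12 bases past the start are included.
Mcoln1: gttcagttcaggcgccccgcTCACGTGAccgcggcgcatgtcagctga
Ctsa: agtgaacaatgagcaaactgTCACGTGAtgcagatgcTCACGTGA
Ctsd: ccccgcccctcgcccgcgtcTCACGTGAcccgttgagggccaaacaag
Atp6v0d1: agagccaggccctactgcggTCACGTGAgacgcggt
Atp6v1a: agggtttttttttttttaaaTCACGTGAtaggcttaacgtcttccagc
The pieces are chr8:3500453-3500500 (plus strand) for Mcoln1, chr2:164833740-164833784 (plus strand) for Ctsa, chr7:142387899-142387946 (minus strand) for Ctsd, chr8:105566053-105566088 (minus strand) for Atp6v0d1 and chr16:44139364-44139411 (minus strand) for Atp6v1a. The Ctsa piece holds the extended form at 2 places. The other genes with the core alone were Lamp1, Ctsl, Lgmn, Gaa and Atp6v0b. A match is a run of letters and not a measured binding site.

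Each array set a sample in Cy5 against 1 common pool of unstimulated AM14 B cell RNA in Cy3, so a log2 ratio of 0 is the level of the pool. There was 1 array per genotype and time, hence no replicates. The number of arrays limits the precision, and whether the arrays came from separate animals is not given. A limma p-value for a time therefore sets the change against how far Tlr9KO, Tlr7KO and WT cells disagreed with each other. Between 37.4% and 62.7% of spots stood above background in Cy5, the Tlr9KO 0 h array being the lowest and the WT 42 h array the next, at 40.9%. WT and Tlr7KO arrays lay on one slide and Tlr9KO and DKO arrays on the other, scanned at another time, so the presence of TLR9 and the slide cannot be told apart. No sample was cultured without PL2-3, so an effect of PL2-3 and one of culture itself cannot be told apart either. The Tlr7 probe stood between -0.73 and 0.41 on the arrays of DKO and Tlr7KO cells and between 0.32 and 1.71 on those of Tlr9KO and WT cells, and the Tlr9 probe stood between -1.14 and 0.04 in cells without Tlr9 and between -0.84 and -0.03 in cells with it, with overlapping ranges, so it did not register the knockout. All 8 B cell markers were above background on every array and 7 of the 8 fell by 6 h, as did 13 of 15 myeloid, 7 of 8 erythroid, 7 of 9 NK and plasmacytoid and 7 of 9 T cell markers, while 3 of 5 plasma cell markers rose. RNA of other cell types was therefore detected. Fewer cells of a type and less RNA per cell cannot be told apart here.

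**Figure D1:**
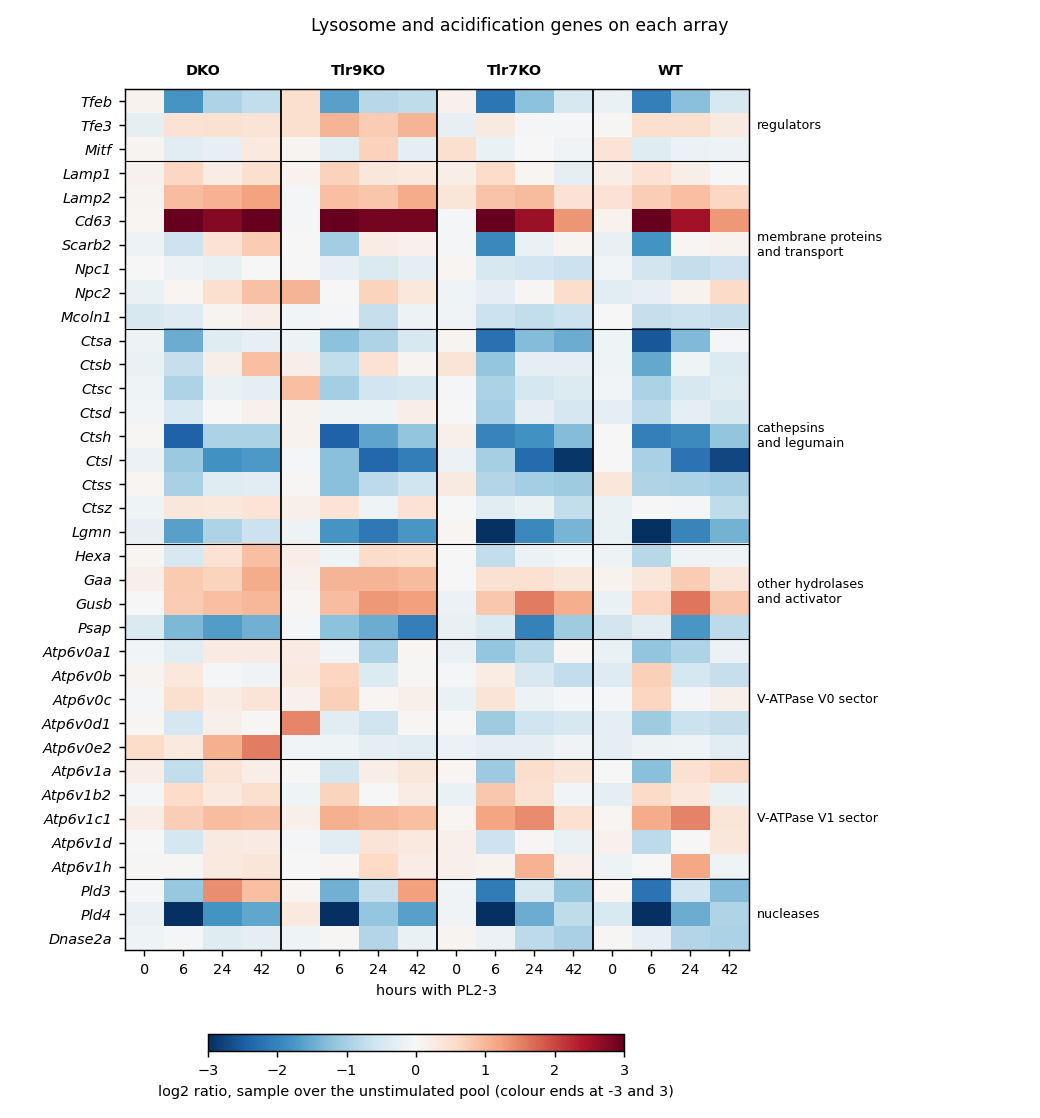
Heat map of the log2 ratio of each of the 36 genes (rows, grouped by role) on each of the 16 arrays (columns, by genotype and hours with PL2-3). Most of the 0 h columns are pale, apart from Atp6v0d1 (1.46), Npc2 (1.03) and Ctsc (0.90) on the Tlr9KO array. Cd63 is red at every stimulated time, from 1.31 to 3.16, and Pld4, Lgmn, Ctsh and Ctsl are blue there in all 4 genotypes.

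By 6 h most of these genes had moved, in both directions. The exonuclease gene Pld4, legumain, cathepsin H and the regulator Tfeb fell, with log2 changes from -3.59 to -2.08, and the tetraspanin gene Cd63 rose by 2.99. Of the 35 genes tested, 19 fell (54.3%) and 10 rose (28.6%) in limma at an adjusted p of 0.05, against 23.9% of all 22488 genes tested that fell and 22.9% that rose. The median of the 35 was -0.58, and that of all genes was -0.003. The split depends on the scaling: with arrays centred on their median in place of loess, which moved the median of all genes by 0.23, 8 fell and 12 rose. Relative to that median of all genes, 16 of the 35 were above and 19 below. The probes of these genes were bright (median log2 signal 11.57 against 8.05 for all genes tested), and the part of brightness in the split was not tested. With the Tlr9KO, Tlr7KO or WT arrays left out in turn, 13 to 21 fell and 5 to 9 rose. The changes of Pld4, Lgmn, Ctsh, Tfeb and Scarb2 (lower) and of Cd63, Gusb, Atp6v1c1 and Atp6v1b2 (higher) passed the threshold under every alternative for 6 h in which the gene was tested.

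**Figure D2:**
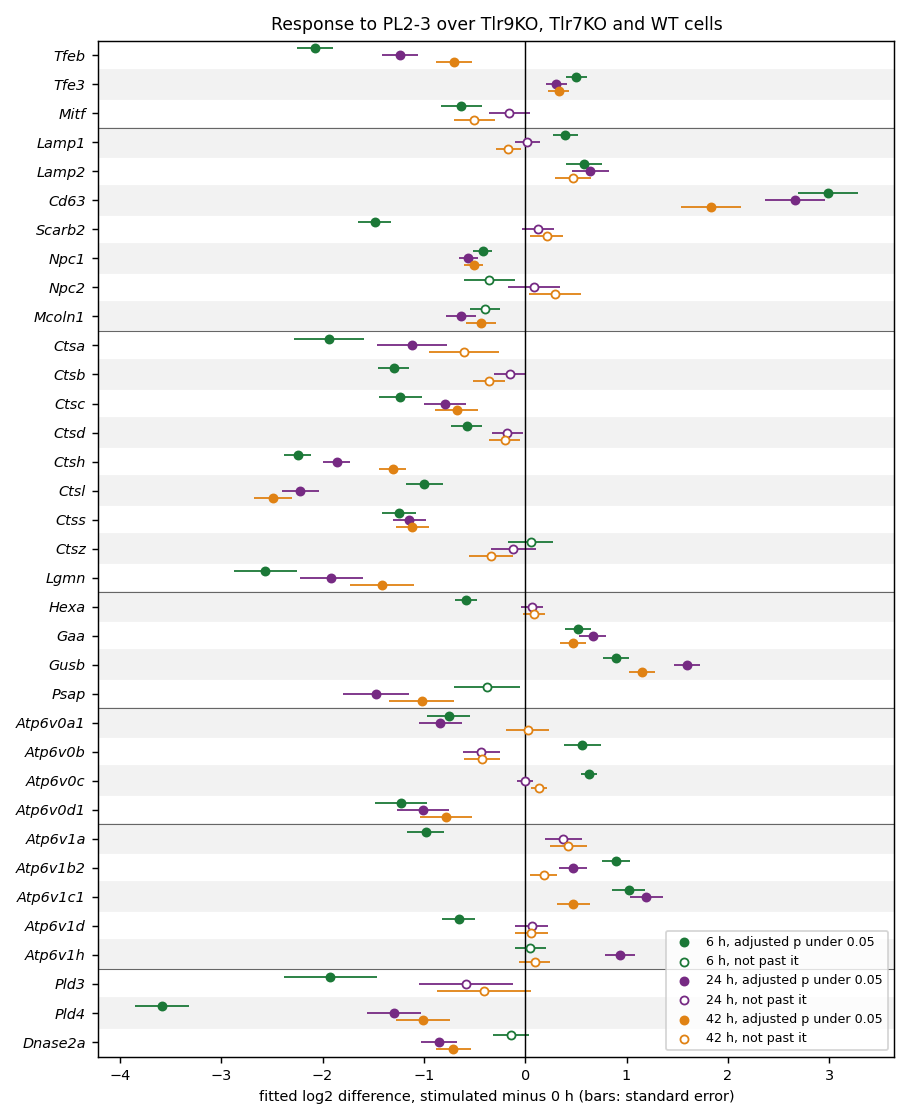
Fitted log2 difference from 0 h (horizontal axis, bars are standard errors) for the 35 tested genes at 6, 24 and 42 h over Tlr9KO, Tlr7KO and WT cells. Filled points passed an adjusted p of 0.05; Pld4 lies lowest at -3.59 and Cd63 highest at 2.99, both at 6 h.

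Among the regulators, Tfeb and Tfe3 moved in opposite directions. The log2 ratio of Tfeb at 6 h was -1.78 in DKO, -1.62 in Tlr9KO, -2.17 in Tlr7KO and -2.06 in WT cells, against 0.11, 0.48, 0.12 and -0.21 in the same genotypes at 0 h. Every 6 h array lay below every 0 h array. The fitted change was -2.08 ± 0.18 (SE, n = 3 genotypes, limma adjusted p = 1.11e-05), measured by a probe at chr17:47929089-47929148 (mm9). At 24 h Tfeb was 0.84 ± 0.18 above its 6 h level (adjusted p = 0.00655; the comparison of 24 with 6 h was added after earlier results were seen). It was still below 0 h, at -1.24 ± 0.18 at 24 h and -0.70 ± 0.18 at 42 h. A dimmer probe for Tfeb gave -0.24 at 6 h and did not pass. Tfe3 rose by 0.50 ± 0.10 at 6 h and stayed 0.31 and 0.33 higher at 24 and 42 h. Mitf, a related factor best known from melanocytes and osteoclasts, fell by 0.63 ± 0.20 at 6 h and did not pass later. Its other probe gave -0.09 at 6 h and did not pass. With median centring Mitf missed the threshold at 6 h (-0.50).

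Of 7 membrane and transport genes, 3 rose and 2 fell at 6 h, against 22.9% and 23.9% of all genes. Cd63, a tetraspanin of late endosomes and secretory lysosomes (probe at chr10:128349813-128349872, mm9), stood at 3.16 in DKO, 2.99 in Tlr9KO, 2.99 in Tlr7KO and 3.01 in WT cells at 6 h, against values between -0.06 and 0.10 on the 0 h arrays. The 6 h arrays lay close together and far above all 0 h arrays. Its fitted change was 2.99 ± 0.30 at 6 h (limma adjusted p = 2.72e-05), 2.66 at 24 h and 1.83 at 42 h. Lamp1 and Lamp2, the abundant glycoproteins that line the lysosomal membrane, rose by 0.40 ± 0.12 and 0.58 ± 0.18 at 6 h. Lamp2 also passed at 24 h (0.64), and Lamp1 did not pass at 24 or 42 h.

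Scarb2 encodes LIMP-2, which carries glucocerebrosidase to lysosomes, and it dipped and came back. Over 0, 6, 24 and 42 h it stood at -0.16, -0.63, 0.44 and 0.77 in DKO cells, at -0.01, -1.04, 0.23 and 0.13 in Tlr9KO cells, at -0.07, -1.93, -0.21 and 0.08 in Tlr7KO cells and at -0.23, -1.80, 0.04 and 0.11 in WT cells. The lowest array of each genotype was the 6 h one. Its change was -1.49 ± 0.16 at 6 h and 0.13 ± 0.16 at 24 h, and the difference between those times was 1.61 ± 0.16 (adjusted p = 0.000211). The cholesterol exporter Npc1 fell by 0.42 ± 0.09 at 6 h, 0.56 at 24 h and 0.51 at 42 h. Its soluble partner Npc2 passed at no time, in a fit that takes in 1.03 on the Tlr9KO 0 h array. The other 0 h arrays had Npc2 at -0.20 in DKO, -0.14 in Tlr7KO and -0.34 in WT cells. Npc2 at 42 h was 1.08 from its own 0 h array in DKO, 0.67 in Tlr7KO and 0.91 in WT cells. In Tlr9KO cells it was -0.70. Mcoln1, the lysosomal calcium channel whose promoter is shown above, missed the threshold at 6 h (-0.40 ± 0.15, adjusted p = 0.0515) and fell at 24 h (-0.63) and 42 h (-0.43), while its other probe gave 0.13 at 6 h and 0.08 at 42 h.

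The cathepsins and legumain moved downward: 8 of 9 fell at 6 h, 6 at 24 h and 5 at 42 h, and none rose, against 23.9%, 26% and 20.7% of all genes that fell at those times. Their median change was -1.24 at 6 h, -1.11 at 24 h and -0.68 at 42 h. With median centring the calls at 6 h were 4 lower (Lgmn, Ctsh, Ctsa and Ctsb) and 1 higher (Ctsz), and Ctsd reversed to 0.13. At 24 h they were 3 lower (Lgmn, Ctsh and Ctsl) and 3 higher (Ctsz, Ctsb and Ctsd), so the downward balance at 24 h depends on the scaling, and at 42 h 3 were lower (Lgmn, Ctsh and Ctsl) and none higher. Myeloid cells also express cathepsins strongly, and the summed Cy5 signal of 17 myeloid marker genes was 13040 to 18520 over the genotypes at 6 h, against 49920 to 60010 at 0 h. Their defining genes Csf1r, C1qa and Lyz2 were above background on 16, 15 and 15 arrays. The part of myeloid RNA in the fall of the cathepsins was not tested.

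Ctsh, an aminopeptidase, stood at -2.42 in DKO, -2.43 in Tlr9KO, -2.00 in Tlr7KO and -2.04 in WT cells at 6 h, against 0.04, 0.10, 0.16 and 0.01 in the same genotypes at 0 h. Its change was -2.25 ± 0.14 at 6 h (limma adjusted p = 1.49e-06), -1.86 at 24 h and -1.31 at 42 h. Legumain (Lgmn), an asparaginyl endopeptidase, fell by 2.56 ± 0.31 at 6 h. Its 6 h values were -1.62 in DKO and -1.76 in Tlr9KO cells, against -2.96 in Tlr7KO and -3.28 in WT cells. The change was -1.91 at 24 h and -1.41 at 42 h.

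Ctsl, an endopeptidase, went on falling after 6 h. Over 0, 6, 24 and 42 h it stood at -0.18, -1.12, -1.81 and -1.72 in DKO cells, -0.05, -1.26, -2.36 and -2.08 in Tlr9KO cells, -0.17, -0.99, -2.32 and -2.92 in Tlr7KO cells and -0.02, -0.98, -2.22 and -2.72 in WT cells. In each genotype the 24 h array lay below the 6 h array. The change was -0.995 ± 0.19 at 6 h, -2.22 at 24 h and -2.49 at 42 h, and Ctsl fell by 1.22 ± 0.19 between 6 and 24 h (adjusted p = 0.00137).

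Ctsb, an abundant endopeptidase, was called at 6 h alone. It stood at -0.68 in DKO, -0.74 in Tlr9KO, -1.17 in Tlr7KO and -1.54 in WT cells at 6 h, against -0.19, 0.19, 0.39 and -0.13 in the same genotypes at 0 h, and the change was -1.30 ± 0.16. At 24 h it was -0.15 ± 0.16 from 0 h, and it had risen by 1.15 ± 0.16 from 6 h (adjusted p = 0.00078). Ctss, which removes the last part of the invariant chain in B cells, fell by 1.24 ± 0.16 at 6 h, 1.14 at 24 h and 1.11 at 42 h. With median centring Ctss passed at no time, at -0.40, 0.06 and -0.56 (limma adjusted p = 0.126, 0.837 and 0.0558). Ctsc, a dipeptidyl peptidase, fell by 1.23 ± 0.21, 0.79 and 0.68 at the same times, values that take in 0.90 on the Tlr9KO 0 h array. The other 0 h arrays had Ctsc at -0.13 in DKO, -0.04 in Tlr7KO and -0.08 in WT cells. Its other probe gave -0.63, -0.53 and -0.24, and the last did not pass. Ctsd, the aspartic protease whose promoter is shown above, fell at 6 h alone (-0.58 ± 0.15). Its other probe gave -0.17 at 6 h and did not pass. Ctsz passed at no time.

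Ctsa, the carboxypeptidase with the extended E-box at 2 places, fell by 1.94 ± 0.35 at 6 h. At 6 h it stood at -1.5 in DKO, -1.22 in Tlr9KO, -2.23 in Tlr7KO and -2.55 in WT cells, against values between -0.16 and 0.09 at 0 h. Its WT 42 h spot was not above background in either colour. Without that spot the change was -1.94 at 6 h, -1.11 at 24 h and -1.04 at 42 h, and the last then passed (adjusted p = 0.0244 against 0.207 with the spot). A dimmer probe gave smaller changes of -0.56, -0.60 and -0.69.

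Of the 4 other hydrolases and activator, 2 rose and 1 fell at each time. Of all genes, 22.9%, 22.7% and 17.3% rose and 23.9%, 26% and 20.7% fell at 6, 24 and 42 h. Gusb, the β-glucuronidase, rose by 0.90 ± 0.13 at 6 h, 1.60 at 24 h and 1.15 at 42 h (limma adjusted p = 0.00032, 1.08e-05 and 0.000139). At 24 h it stood at 0.90 in DKO, 1.31 in Tlr9KO, 1.55 in Tlr7KO and 1.61 in WT cells, above all 4 arrays at 0 h, which lay between -0.19 and 0.04. Its other probe gave smaller changes of 0.48, 0.39 and 0.11 at 6, 24 and 42 h. Gaa, which breaks down glycogen, rose by 0.52 ± 0.13, 0.67 and 0.47, although another of its 3 probes gave -0.21 at 24 h and -0.22 at 42 h. Hexa, a chain of β-hexosaminidase, fell by 0.58 ± 0.11 at 6 h and was 0.07 ± 0.11 from 0 h at 24 h. Prosaposin (Psap), the precursor of the saposin activators, did not pass at 6 h (-0.38 ± 0.32) and fell by 1.47 at 24 h and 1.02 at 42 h. At 6 h it was -1.34 in DKO and -1.22 in Tlr9KO cells, against -0.43 in Tlr7KO and -0.31 in WT cells.

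The subunits of the proton pump did not move together. At 6 h 2 of 4 tested V0 genes rose and 2 fell, and 2 of 5 V1 genes rose and 2 fell. Of all genes, 22.9% rose and 23.9% fell, and with so few genes these counts are not a result about the pump. In V0, Atp6v0c, the main subunit of the rotating ring, rose by 0.63 ± 0.08 and Atp6v0b, another ring subunit, by 0.56 ± 0.18, while Atp6v0a1, which forms part of the proton path, fell by 0.76 ± 0.21. Atp6v0d1, which couples the ring to V1 and has the extended E-box across its start, fell by 1.23 ± 0.26, a value that takes in 1.46 on the Tlr9KO 0 h array. The other 0 h arrays had it at 0.03 in DKO, 0.00 in Tlr7KO and -0.26 in WT cells. In V1, the stator subunit Atp6v1c1 rose by 1.02 ± 0.16 and Atp6v1b2, the non-catalytic B subunit, by 0.89 ± 0.14, and the catalytic subunit Atp6v1a and the rotor subunit Atp6v1d fell by 0.98 ± 0.18 and 0.66 ± 0.16. Under median centring Atp6v1d turned to 0.09.

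Between 6 and 24 h, 3 of the 5 V1 genes rose and 1 fell, against 14.2% and 18% of all genes. Atp6v1a rose by 1.36 ± 0.18 from 6 to 24 h (adjusted p = 0.00073): at 24 h it stood at 0.40 in DKO, 0.21 in Tlr9KO, 0.53 in Tlr7KO and 0.45 in WT cells, against -0.75, -0.55, -1.09 and -1.26 in the same genotypes at 6 h. All the 24 h arrays lay above all the 6 h arrays. Atp6v1h, a regulatory subunit, and Atp6v1d rose by 0.88 ± 0.15 and 0.72 ± 0.16 over the same interval. Atp6v1b2 fell by 0.42 ± 0.14 (adjusted p = 0.0411), and Atp6v1c1 did not pass. Relative to 0 h, Atp6v1b2, Atp6v1c1 and Atp6v1h were higher at 24 h and none of the 5 V1 genes was lower. Only Atp6v1c1 was still called at 42 h (0.47 ± 0.16). The V0 genes Atp6v0b and Atp6v0c went the other way between 6 and 24 h, at -0.997 ± 0.18 and -0.63 ± 0.08.

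Atp6v0e2, a small V0 subunit, was above background in Cy5 on the 4 DKO arrays and on no other, and so was not tested over time. Its log2 ratio over 0, 6, 24 and 42 h was 0.55, 0.29, 1.06 and 1.53 in DKO cells, against -0.34 to -0.08 on the 12 arrays of the other genotypes. The groups did not overlap, and the unstimulated DKO array was already above the others. In the Cy5 channel alone, which is open to dye bias, the stimulated DKO arrays were at least 2.36-fold higher than the background level of the other 9 stimulated arrays. It passed the filter on dim probes only through the DKO arrays, so no test of its difference between genotypes is given.

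Pld4 had the largest fitted fall of the 35 genes at 6 h. It (probe at chr12:114006018-114006077, mm9) stood at -3.98 in DKO, -3.99 in Tlr9KO, -3.60 in Tlr7KO and -3.44 in WT cells at 6 h, against -0.20, 0.29, -0.10 and -0.46 in the same genotypes at 0 h. All 6 h arrays lay below all 0 h arrays. The change was -3.59 ± 0.27 (limma adjusted p = 4.62e-06). By 24 h Pld4 had regained 2.30 ± 0.27 (adjusted p = 0.000379) and the change from 0 h was -1.29 at 24 h and -1.005 at 42 h. Pld3 fell by 1.92 ± 0.46 at 6 h and did not pass later, and its genotypes diverged at 24 and 42 h. Dnase2a, the acid endonuclease that digests DNA in lysosomes, did not pass at 6 h (-0.14 ± 0.18) and fell by 0.85 at 24 h and 0.71 at 42 h.

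**Figure D3:**
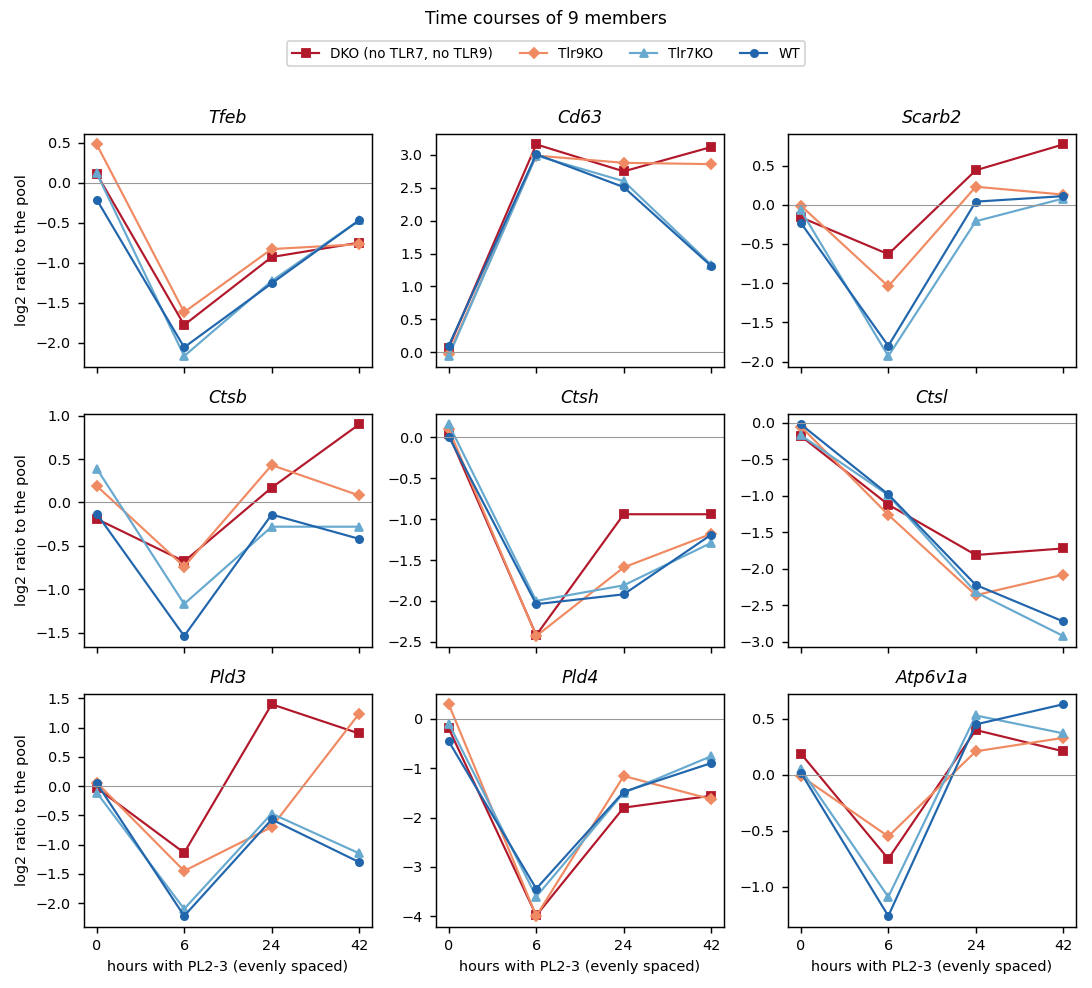
Log2 ratio to the pool (vertical axis) over 0, 6, 24 and 42 h with PL2-3 (horizontal axis, evenly spaced) for 9 genes, with 1 line per genotype and 1 array per point. Tfeb, Scarb2, Ctsb, Pld4 and Atp6v1a are lowest at 6 h, Ctsl goes on falling to 24 h, and Cd63 and Pld3 separate at 42 h by whether the cells have TLR9.

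Over all the genes, 14 fell and 8 rose at 24 h (26% and 22.7% of all genes), and 12 fell and 5 rose at 42 h (20.7% and 17.3% of all genes). The median of the 35 was -0.16 at 24 h and -0.34 at 42 h. With median centring, the counts were 3 lower and 18 higher at 24 h and 4 lower and 3 higher at 42 h. The median of all genes then stood at 0.23 at 24 h and 0.08 at 42 h. Relative to it, 19 of the 35 genes were above and 16 below at 24 h, and 18 above and 17 below at 42 h. The share of all genes called was not counted under that scaling. Between 6 and 24 h, 9 genes rose and 7 fell, against 14.2% and 18% of all genes. Falls of Lgmn, Ctsh and Ctsl and rises of Gusb, Atp6v1c1 and Cd63 passed at 24 h under every alternative, and Ctsh, Ctsl, Gusb and Cd63 did so at 42 h. At 42 h the count of falls was 19 without the Tlr9KO arrays, 7 without WT and 3 without Tlr7KO arrays.

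The promoter letters were set beside the 6 h calls. Of the 10 genes with the E-box core, 6 fell, 3 rose and 1 did not pass, and of the 20 without it 10 fell, 5 rose, 4 did not pass and 1 was not tested. Over all genes, 23.9% fell and 22.9% rose at 6 h. Among the 5 genes shown with the extended form, Ctsa, Atp6v0d1, Atp6v1a and Ctsd fell, and Mcoln1 missed the threshold.

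A wider list of 126 lysosomal genes was examined for context, of which 115 were tested. At 6 h 25 rose and 48 fell, against 22.9% and 23.9% of all genes, at 24 h 15 rose and 53 fell, against 22.7% and 26%, and at 42 h 10 rose and 43 fell, against 17.3% and 20.7%. The shares over all genes at 6 h apply to each of the lists that follow, and with few genes in a list a count near them is not a result about it. By list at 6 h, 3 of 31 other hydrolases rose and 19 fell, 5 of 21 sorting and biogenesis genes rose and 8 fell, 5 of 18 other membrane proteins and transporters rose and 7 fell, and 2 of 10 other pump subunits and accessory proteins rose and 4 fell. Of 13 autophagy genes 3 rose and 5 fell, of 8 genes of nutrient control of TFEB 4 rose and 1 fell, of 10 genes of endosomal nucleic acid sensing 1 rose and 2 fell, and of 4 cathepsin inhibitors and thiol reductase genes 2 rose and 2 fell. Both receptors that sort hydrolases by their mannose 6-phosphate tag rose at 6 h, Igf2r by 1.98 ± 0.19 and M6pr by 1.88 ± 0.10. Cst7, which encodes the cathepsin inhibitor cystatin F, rose by 3.17 ± 0.76 at 6 h and 4.24 at 24 h, and Cst3, which encodes the inhibitor cystatin C, fell by 2.97 ± 0.08. The acid phosphatase gene Acp5 fell by 3.90 ± 0.23. Lamp3, a membrane glycoprotein of activated dendritic cells, and Gabarapl1, an autophagosome protein, rose by 1.76 ± 0.11 and 1.62 ± 0.13 at 24 h, and Ifi30, the lysosomal thiol reductase, fell by 2.54 ± 0.25. Unc93b1, which brings TLR7 and TLR9 to endosomes, fell by 1.04 ± 0.15 at 6 h.

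The next question was whether cells without receptors handled these genes differently. Against each genotype's own 0 h array, the median of the 36 genes in DKO cells was -0.31 at 6 h, 0.25 at 24 h and 0.33 at 42 h. It was -0.29, -0.28 and -0.08 in Tlr9KO cells, -0.62, -0.32 and -0.47 in Tlr7KO cells and -0.60, -0.09 and -0.22 in WT cells. The median of all genes lay between -0.024 and 0.014 throughout. By 42 h 25 of the 36 genes were above their own start in DKO cells, against 17 in Tlr9KO, 14 in Tlr7KO and 16 in WT cells. Of all genes, 48.9% were above it in DKO, 50.6% in Tlr9KO, 48.2% in Tlr7KO and 47.5% in WT cells. The 36 take in Atp6v0e2, which was above background in Cy5 on the DKO arrays alone. Each of these values rests on a single 0 h array.

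**Figure D4:**
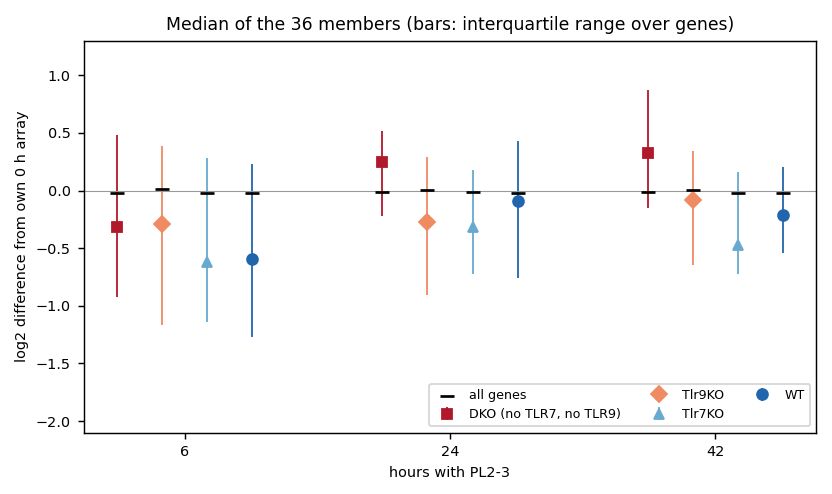
Median log2 difference of the 36 genes from the genotype's own 0 h array (points, with bars from the lower to the upper quartile over genes) at 6, 24 and 42 h with PL2-3, with black dashes for the median of all genes. The DKO median is above 0 at 24 and 42 h (0.25 and 0.33), and those of the other genotypes are below it.

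No genotype comparison over the stimulated arrays called any of the 36 genes in limma. For DKO against the other 3 genotypes, 0% of all genes were called higher and 0% lower, 13 of the 36 had an unadjusted p under 0.05, and the median of the 36 was 0.28. These counts and medians take in Atp6v0e2, which entered through the DKO arrays. Lgmn (1.01 ± 0.24, adjusted p = 0.119), Scarb2 (0.68 ± 0.17, adjusted p = 0.119) and Pld3 (1.36 ± 0.45, adjusted p = 0.165) were among the larger differences. Without the Tlr9KO arrays, where DKO is set only against genotypes on the other slide, 14 genes were called higher and 1 lower. The median of the 36 was then 0.38, against -0.01 for all genes. The share of all genes called in that fit was not counted, so these calls are not a result about the 36. With the slide as a block none was called and the median was 0.11, and with median centring it was -0.10, against -0.14 for all genes.

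The comparisons within a slide were smaller. DKO minus Tlr9KO had a median of 0.11 over the 36 genes, with 5 at an unadjusted p under 0.05, and 0.00871% of all genes were called higher and 0.0348% lower. Tlr7KO minus WT had a median of -0.01, with 1 at an unadjusted p under 0.05, and 0% of all genes were called higher and 0.00435% lower. Across slides, Tlr9KO minus WT had a median of 0.26, with 8 at an unadjusted p under 0.05, and 0.0261% of all genes were called higher and 0.0305% lower. The response of DKO cells minus that of the other 3 genotypes had a median of 0.37 and no gene called among the 36, with 8 at an unadjusted p under 0.05, against 0.0128% of all genes called higher and 0.0256% lower. The counts and medians of the comparisons with DKO cells take in Atp6v0e2, which passed the filter on dim probes only through the DKO arrays. Of the response of Tlr9KO minus that of WT cells, 1 of the 36 was called (Ctsc, lower), against 1.17% of all genes higher and 0.238% lower. The Ctsc difference was -1.07 ± 0.17 (adjusted p = 0.0264), and it takes in a value of 0.90 on the Tlr9KO 0 h array, against -0.08 on the WT 0 h array. On the stimulated arrays Ctsc differed by -0.10 ± 0.09 between Tlr9KO and WT cells.

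The arrays of cells without TLR9 and with it stood apart for many of these genes at 42 h. Both arrays without TLR9 lay above both arrays with it for 23 of 36 genes and below for 4, against 25.8% and 27.2% of all genes. At 0 h the counts were 9 and 7, against 18.1% and 21.7% of all genes, at 6 h 21 and 6, against 26.5% and 25.4%, and at 24 h 17 and 5, against 18.6% and 24%. The median difference over the 36 was 0.50 at 42 h and 0.09 at 0 h. On the WT 42 h array 40.9% of spots were above background in Cy5, against 51.5% to 62.7% on the other 42 h arrays. Some genes were dim on it: the mean log2 signal of Atp6v1d was 7.66, against 12.01 to 12.65 on the other 42 h arrays. That of Atp6v0c was 10.22, against 12.87 to 13.27. The part of this array in the 42 h split was not tested. With median centring the counts at 42 h were 17 and 6 and the median 0.29, against -0.10 for all genes. At 6 and 24 h the counts turned to 7 and 17 and to 0 and 28. The median of the 36 was then -0.13 at 6 h and -0.62 at 24 h, against -0.17 and -0.44 for all genes. All genes shifted downward as well under that scaling, with 13% higher and 51.9% lower at 6 h, and 8% and 60.6% at 24 h. Slide and TLR9 cannot be told apart in these counts, and they carry no test. The 9 genes at 0 h and the 21 at 6 h under the main scaling take in Atp6v0e2, which passed the filter through the DKO arrays. Summed signals of cell markers, those of B cells included, differed between the same arrays, and such a sum weighs the brightest genes most. The summed Cy5 signal of 17 myeloid markers was 18520 in DKO and 18300 in Tlr9KO cells, against 13040 in Tlr7KO and 14190 in WT cells, at 6 h, and 25190 and 19420, against 11830 and 10070, at 24 h. At 42 h it overlapped, at 32280 in DKO and 26240 in Tlr9KO cells, against 21700 in Tlr7KO and 27420 in WT cells. The median log2 ratio of the myeloid markers overlapped at 6 h, at -2.01 in DKO and -1.70 in Tlr9KO, against -2.14 in Tlr7KO and -1.80 in WT cells. Csf1r ran the other way from the sum at 6 h, at -3.38 in DKO and -3.47 in Tlr9KO, against -3.12 in Tlr7KO and -3.09 in WT cells. C1qa was also lower on both arrays without TLR9 at 6 h, while Lyz2 overlapped. The sum of 9 NK and plasmacytoid markers at 42 h was 75960 in DKO and 82000 in Tlr9KO cells, against 45940 in Tlr7KO and 66610 in WT cells, and was also higher on both arrays without TLR9 at 6 and 24 h. The sum of 9 T cell markers at 42 h was 36900 in DKO and 45380 in Tlr9KO cells, against 22880 in Tlr7KO and 24340 in WT cells. Their median log2 ratio ran the other way, at -0.37 in DKO and -0.44 in Tlr9KO, against -0.34 in Tlr7KO and -0.24 in WT cells. The sum of 5 plasma cell markers at 42 h was 30230 and 32710 in DKO and Tlr9KO cells, against 24440 and 10370 in Tlr7KO and WT cells. At 6 h the B cell sum was higher on both arrays without TLR9, at 115100 in DKO and 126400 in Tlr9KO cells. It was 94530 in Tlr7KO and 87670 in WT cells. The plasma cell sum was also higher on both arrays without TLR9 at 6 h, while the T cell and erythroid sums were lower. At 24 h these sums overlapped. The B cell and erythroid sums overlapped at 42 h. The median log2 ratios of the NK and plasmacytoid and of the plasma cell markers overlapped at 42 h as well. The part of these cells in the split was not tested.

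Cd63 and Pld3 showed the split most plainly. At 42 h Cd63 stood at 3.12 in DKO and 2.86 in Tlr9KO cells, against 1.33 in Tlr7KO and 1.31 in WT cells, after values between 2.99 and 3.16 in all 4 genotypes at 6 h. Pld3 stood at 0.90 in DKO and 1.24 in Tlr9KO cells, against -1.15 in Tlr7KO and -1.30 in WT cells. At 24 h Pld3 was at 1.40 in DKO cells, and -0.70 in Tlr9KO, -0.47 in Tlr7KO and -0.57 in WT cells. The DKO array alone was high then. Ctsb at 42 h was 0.90 in DKO and 0.08 in Tlr9KO cells, against -0.28 in Tlr7KO and -0.42 in WT cells, and Hexa was 0.91 and 0.51 in DKO and Tlr9KO cells, against -0.09 and -0.10 in Tlr7KO and WT cells. Ctsz, which passed at no time over the genotypes together, was 0.41 and 0.44 in DKO and Tlr9KO cells, against -0.75 and -0.76 in Tlr7KO and WT cells. The inhibitor gene Cst7 of the wider list was 5.73 and 4.99 in DKO and Tlr9KO cells, against 1.36 and 1.14 in Tlr7KO and WT cells. Pld4 ran the other way, at -1.56 and -1.63 in DKO and Tlr9KO cells, against -0.76 and -0.90 in Tlr7KO and WT cells.

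**Figure D5:**
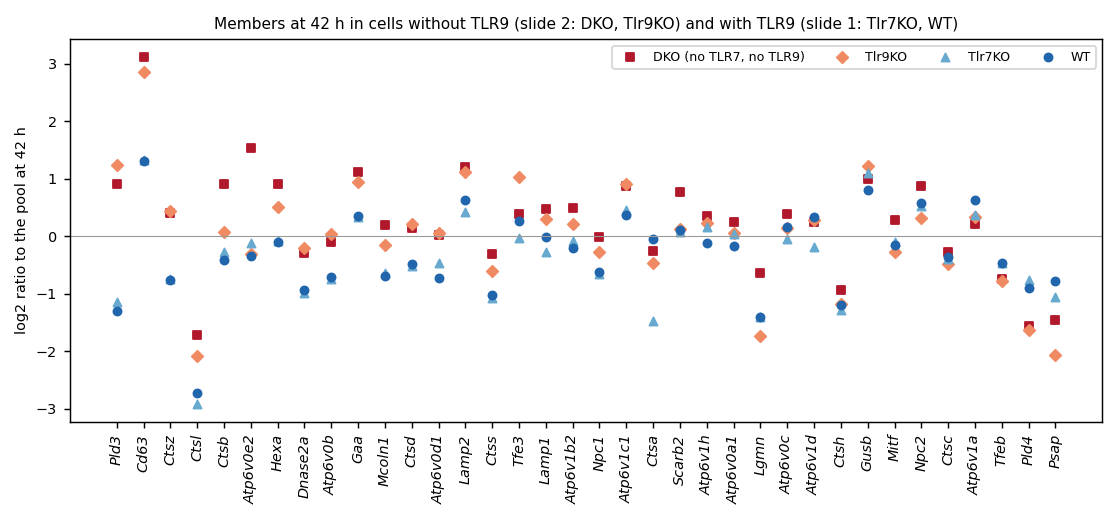
Log2 ratio to the pool at 42 h (vertical axis) of the 36 genes, ordered by the mean of DKO and Tlr9KO minus the mean of Tlr7KO and WT, with 1 point per genotype. From Pld3 and Cd63 at the left to Psap at the right, both arrays without TLR9 lie above both arrays with it for 23 genes and below for 4.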

How the data were processed

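The 36 genes, the wider lists and the marker lists were chosen with earlier results of these data known. Per the file headers, the scans were quantified by Agilent Feature Extraction 10.1.1.1 (62976 spots, 3671 of them controls, none saturated). The deposited intensity columns are the mean foreground and median local background of each colour; the deposited processed intensity was background-subtracted and dye-normalized. The authors' series table holds log10 ratios of Cy5 over Cy3. Starting from the raw intensities, limma 3.58.1 (R 4.3.3) was used: background was corrected by normexp (offset 50) and colours were normalized by loess within arrays, giving log2 of Cy5 over Cy3. Each gene was read by its brightest probe, and tested when Cy5 or Cy3 stood well above background on 3 or more of the comparison's arrays. A fold given as "at least" was taken in Cy5 after Aquantile scaling. Times were fitted on 12 arrays (Tlr9KO, Tlr7KO and WT, with genotype as a term), genotypes on 12 stimulated arrays with time as a term, and response differences on all 16. Tests were 2-sided with Benjamini-Hochberg adjustment over all genes. Genotypes or times, not animals, stand in for replicates in each fit. The fit of times and that of DKO cells against the others were tested on simulated data. The fits of genotype pairs and of response differences were not. Genes are named as on the array or through a RefSeq table (GRCm38). Named genes are all 36 and, of the wider list, the 3 largest rises and falls at each time, with Tlr7, Tlr9 and Unc93b1; 1 gene that this rule names is not reported here. Background, scaling, filter, probe choice and left-out arrays were varied.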

Additional observations from a re-analysis of the deposited data

Results flagged for a closer look

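The response of Ctsc differed between Tlr9KO and WT cells, with a fitted difference of -1.07 (limma adjusted p = 0.0264). The Tlr9KO 0 h array held Ctsc at 0.90 and also Npc2 at 1.03 and Atp6v0d1 at 1.46, against values between -0.34 and 0.03 for these genes on the other 0 h arrays. The adjusted p of Ctsc missed the threshold, or the sign turned, under 9 of 11 alternatives. The source of these values on that array was not tested.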

How the results depend on the processing

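The labels give no replicate numbers, so none was fitted as a block; genotype was already a term in the fits of time, and time in those of genotype. With median centring, 8 genes fell at 6 h, 3 fell and 18 rose at 24 h, 4 fell and 3 rose at 42 h, and 2 fell between 6 and 24 h. The median of all genes under that scaling was 0.23 at 6 h, 0.23 at 24 h and 0.08 at 42 h. With the Cy5 channel alone, 6 rose at 6 h, 5 fell and 3 rose at 42 h, and 1 fell between 6 and 24 h. With the authors' series table, 3 rose at 42 h and 3 fell between 6 and 24 h. Within the slide of Tlr9KO and DKO cells, 11 fell at 6 h, 7 fell and 5 rose at 24 h, 5 fell at 42 h and 1 fell between 6 and 24 h. With all 4 genotypes, 14 rose between 6 and 24 h. Without the Tlr9KO 0 h array, an alternative chosen after seeing the data, 3 rose at 42 h.

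With 1 of the 3 genotypes left out at a time, 5 to 9 rose and 13 to 21 fell at 6 h, 5 to 10 rose and 10 to 16 fell at 24 h, 2 to 5 rose and 3 to 19 fell at 42 h, and 5 to 18 rose and 3 to 8 fell between 6 and 24 h. With 1 genotype or time left out, 0 to 14 genes were higher and 0 to 1 lower in DKO cells than in the other 3 genotypes, and 0 in each direction in the other genotype comparisons. The share of all genes called was not counted for these fits. The call of Ctsc in the response of Tlr9KO minus WT cells dropped to 0 without background correction, with median centring, with the series table, with the Cy5 channel alone (where its sign turned, at 0.64), with a filter on all arrays, with the mean of the probes and with any stimulated time left out.

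Single genes reversed as follows. With median centring, Ctsd and Hexa were at 0.13 and Atp6v1d at 0.09 at 6 h, and Ctsa at 0.11, Dnase2a at 0.04, Mcoln1 at 0.16, Ctsc at 0.17, Ctss at 0.06 and Atp6v0a1 at 0.01 at 24 h. With the Cy5 channel alone, Gaa was at -0.09 and Ctsc at 0.09 at 42 h. Mcoln1 was at 0.29 at 42 h within the slide of Tlr9KO and DKO cells. The causes were not tested. Signal over background limited Atp6v0e2, which was tested in the genotype comparisons alone.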
